A study of Mus musculus with 14 samples.

Results

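Krüppel-like factors (KLFs) are transcription factors that bind CACCC and GC-rich motifs through zinc fingers at the end of the protein. The measurements here are of 7 of their transcripts, Klf2, Klf3, Klf4, Klf6, Klf7, Klf10 and Klf13, out of 14329 genes, in microglia of the dorsal lumbar spinal cord. They were chosen by family and by a measured value, the difference of Klf4 between the genotypes in the control serum (Control ST) libraries. For that reason TASTPM against WT under Control ST is given below as a description without a test. All 7 passed the filter on low counts, which kept 12645 genes, and a further 9 family members (5 other Klf genes and 4 Sp genes) were among the 14329.

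Microglia were sorted as CD45low CD11b+ CX3CR1+ cells, 2000 per sample, and their RNA was sequenced in bulk. The gate in the study's methods also left out cells positive for Ly6C or CCR2, both markers of monocytes. The mice were 6 months old and were studied on day 5 after serum transfer (ST). They were WT C57BL/6 mice given control serum (WT Control ST, 3 libraries) or arthritogenic K/BxN serum (WT K/BxN ST, 4 libraries), and TASTPM mice given control serum (TASTPM Control ST, 3 libraries) or K/BxN serum (TASTPM K/BxN ST, 4 libraries). TASTPM mice are heterozygous transgenic mice that carry human APP with the Swedish mutation under the Thy-1 promoter, which is used to drive expression in neurons. Values are normalized counts, the reads of a gene divided by 1 factor for each library. Only the 4 replicates of TASTPM K/BxN ST could be matched with sample labels, and the libraries of the other groups are numbered as they stand in the deposited table. Per the study's methods, replicates are individual mice, so p-values measure the spread between mice.

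Reads on genes numbered 14223015 to 20239175 per library. All 8 microglial markers of a list had reads in every library, and P2ry12 ranged from 34656 to 166138 normalized counts. In 4 libraries, WT K/BxN ST 1 and 2 and TASTPM K/BxN ST 1 and 2, the summed counts of 16 monocyte and neutrophil markers were 81324 to 343931, against 26.0 to 2905 in the other 10 libraries. All 4 carried Ly6c2 at 12898 or more, while the other 10 carried at most 17.8, although the gate was negative for Ly6C, and their P2ry12 was 34656 to 94752 against 106484 to 166138. These 4 are called the myeloid-marker libraries below, and results of the 7 transcripts that turn or move by over 1.5 times without them are also given without them. None of the 7 lymphocyte markers and 2 of 7 endothelial markers were among the genes of the table, with Cldn5 and Cdh5 not among them. The 2 were Pecam1, at 121 to 343 normalized counts in all 14 libraries, and Flt1, at 82.2 to 202 in the 4 myeloid-marker libraries and 0 to 4.51 in the other 10. Summed counts of 5 border macrophage markers (Mrc1, Cd163, Lyve1, Pf4 and Cbr2) were 26.0 to 149 in WT Control ST, 72.1 to 878 in TASTPM Control ST, 0 to 2943 for WT under K/BxN ST and 106 to 1451 for TASTPM under K/BxN ST, and 0 of the 4 tested were called. Summed counts of 5 red cell markers were 1513 to 41819 in WT Control ST and 508 to 4571 in the other 11 libraries, and their part in the results was not tested. In the bulk RNA, fewer cells of a type and less RNA per cell cannot be told apart. The labels do not give the sex of each library. Sex-linked expression, as log2 Xist less the mean log2 of 4 Y-linked genes, ran from −8.93 to 11.8 and took both signs in each group, so it was tried as a covariate. It was not balanced between the genotypes under Control ST, with −7.15, −3.63 and 3.12 in WT and 11.7, 11.8 and −1.33 in TASTPM. All 4 myeloid-marker libraries had negative values (−8.93 to −5.06), while the other 2 of WT K/BxN ST had 10.8 and 11.4. In WT, leaving out the myeloid-marker libraries therefore also leaves K/BxN ST with 1 sign of this measure, and the 2 cannot be told apart there.

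In endothelium and in myeloid cells, KLF2 and KLF4 are induced through the kinase ERK5 and MEF2 factors and are known for holding inflammatory genes down, and KLF4 also drives monocyte differentiation. KLF3 is chiefly a repressor that recruits CtBP. KLF6 and KLF10 behave as early response genes, KLF10 being induced by TGF-beta, KLF7 is known from neurons, and KLF13 is known as an activator of Ccl5 in T cells.

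The promoters of Klf2, Klf4 and Klf13 are shown because the levels of these genes correlated over all 14 libraries, as described below. This lay in part in the WT Control ST libraries, which the choice used. Without them r was 0.74 for Klf4 with Klf13, 0.42 for Klf4 with Klf2 and 0.07 for Klf2 with Klf13. Each runs from 250 bases before to 50 bases after the annotated start of the main transcript (GENCODE annotation of GRCm39, read 5′ to 3′ on the strand of the gene), and capitals mark the GC box, searched as GGGCGG or its reverse complement CCGCCC.
Klf2, chr8:73072476-73072775, plus strand: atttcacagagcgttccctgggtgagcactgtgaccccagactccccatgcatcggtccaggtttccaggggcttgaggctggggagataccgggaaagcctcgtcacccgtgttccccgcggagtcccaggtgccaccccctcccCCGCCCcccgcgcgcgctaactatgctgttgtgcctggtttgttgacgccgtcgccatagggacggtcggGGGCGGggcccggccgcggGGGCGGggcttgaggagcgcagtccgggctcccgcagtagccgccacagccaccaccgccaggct
Klf4, chr4:55532417-55532716, minus strand: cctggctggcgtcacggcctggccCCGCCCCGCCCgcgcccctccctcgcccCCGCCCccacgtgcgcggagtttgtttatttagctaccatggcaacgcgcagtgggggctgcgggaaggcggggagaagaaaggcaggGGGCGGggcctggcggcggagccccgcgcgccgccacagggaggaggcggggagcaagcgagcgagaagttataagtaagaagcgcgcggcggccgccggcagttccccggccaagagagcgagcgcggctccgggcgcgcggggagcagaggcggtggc
Klf13, chr7:63588614-63588913, minus strand: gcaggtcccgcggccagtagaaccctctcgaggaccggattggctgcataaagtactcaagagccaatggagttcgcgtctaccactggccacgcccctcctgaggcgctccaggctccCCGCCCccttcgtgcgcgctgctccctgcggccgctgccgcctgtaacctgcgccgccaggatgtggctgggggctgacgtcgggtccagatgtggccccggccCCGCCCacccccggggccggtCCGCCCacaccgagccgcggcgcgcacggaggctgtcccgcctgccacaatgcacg

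The GC box, a motif that Sp and KLF proteins bind, was found in the same window of all 7 genes, with 3 matches in Klf2, 8 in Klf3, 4 in Klf4, 1 in Klf6, 2 in Klf7, 2 in Klf10 and 3 in Klf13. It was present in 42.5% of 21757 promoters of that length. The windows of the 7 genes had 62.7% (Klf6) to 80.3% (Klf3) G and C, against a median of 54.3% over all promoters. The KLF box, CACCC or its reverse complement GGGTG, was found in Klf2 (3 matches), Klf3 (5), Klf7 (2) and Klf13 (1), and in 58.7% of all promoters, and the matches in Klf3 and Klf13 include 1 each that overlaps a GC box. Klf4, Klf6 and Klf10 held no KLF box in these 300 bases. A MEF2 site was found in Klf6 alone among the 7, and in 2.96% of all promoters. The TATA motif (TATAAA or TTTATA), the SRF CArG box and the CRE (TGACGTCA) were in none of the 7 windows, and in 13.2%, 1.54% and 2.45% of all promoters.

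Scaled to exon length, Klf6 was the highest factor in every group. In WT Control ST the levels per kb were 1358 ± 148 (SD, n = 3) for Klf6, 442 ± 40.2 for Klf3 and 322 ± 27.9 for Klf2, and the ranges of these 3 did not overlap. Klf10 (142 ± 59.6), Klf7 (124 ± 44.3) and Klf13 (92.6 ± 33.7) followed with overlapping ranges, and Klf4 was last at 0. In the 3 other groups Klf2 stood above Klf3, with no overlap of their ranges per kb. This order depends on the merged exon lengths, 14998 bases for Klf3, 4468 for Klf6 and 2136 for Klf2. Without the scaling, Klf3 had 4667 to 7491 normalized counts over all libraries, Klf6 5074 to 8105 and Klf2 634 to 2469. Under K/BxN ST, Klf2 was at 841 ± 271 per kb in WT and 721 ± 261 in TASTPM (SD, n = 4 each), and in TASTPM Control ST it was at 704 ± 167 (n = 3), where Klf3 was at 379 ± 61.3. Klf3 was at 368 ± 36.0 and 375 ± 84.6 under K/BxN ST in the same order. Klf4 was the lowest in all 4 groups, with 29.0 ± 2.84 per kb in TASTPM Control ST, and under K/BxN ST 30.8 ± 31.7 in WT and 52.3 ± 39.9 in TASTPM, where its range overlapped that of Klf7. Together, the 7 transcripts took 0.0876% to 0.120% of the reads on genes in a library.

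**Figure D1:**
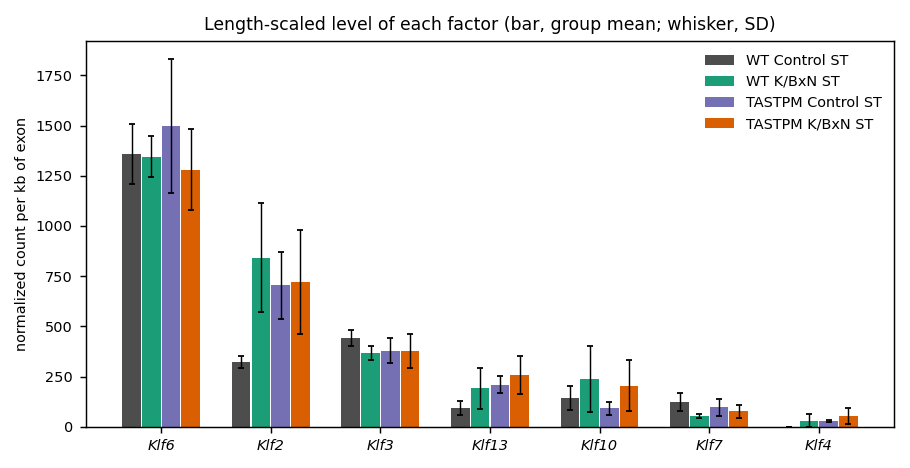
Mean normalized count per kb of exon (linear axis from 0) of each factor in the 4 groups, with the SD over 3 or 4 libraries as whiskers. Klf6 is highest throughout, Klf2 stands above Klf3 in all groups but WT Control ST, and Klf4 is at 0 in WT Control ST. The scaling divides by merged exon length, 14998 bases for Klf3 and 2136 for Klf2, and without it Klf3 was above Klf2 in every library.

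Klf4 lies on chromosome 4 from 55527139 to 55532528 on the minus strand. No read of it was present in the 3 WT Control ST libraries, and the 3 of TASTPM Control ST held 83.6, 101 and 89.0 normalized counts. Under K/BxN ST the values were 231, 112, 39.4 and 5.45 for WT and 153, 128, 338 and 39.5 for TASTPM. The 3 libraries without a read of Klf4 had 18091110 to 20239175 reads on genes, and each would have shown 3 reads at 2.51 to 2.87 normalized counts. The other 11 libraries held 5 to 288 reads of Klf4.

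Against a floor of 3 reads per library in WT Control ST, the mean of Klf4 was at least 33.4-fold higher in TASTPM Control ST, at least 35.5-fold higher for WT under K/BxN ST and at least 60.3-fold higher for TASTPM under K/BxN ST. In WT under K/BxN ST this bound was 8.22-fold without the 2 myeloid-marker libraries and 19.1-fold without library 1 alone. In TASTPM under K/BxN ST it was 39.2-fold without replicate 3. These values are descriptions, because all of them rest on Control ST libraries that chose the gene. Of 12645 genes, 21 (0.166%) had no read in any WT Control ST library and at least 3 reads in every TASTPM Control ST library. The WT Control ST libraries held 12182, 12789 and 13082 genes with reads, while the other 11 held 12483 to 13945.

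The comparison of Klf4 that the choice did not use is that of the genotypes under K/BxN ST, with 165 ± 126 normalized counts in TASTPM and 96.9 ± 99.9 in WT (SD, n = 4 each). The log2 fold change was 1.33 (SE 0.99, limma adjusted p = 1.00, unadjusted p = 0.201), and the groups overlapped (exact two-sided permutation p = 0.343). Across 8 alternatives it was 0.74 (edgeR) to 2.86 without the myeloid-marker libraries, and the adjusted p was 1.00 in each. On leaving out 1 library it ran from 0.34 (without WT K/BxN ST library 4) to 2.06 (without WT K/BxN ST library 1). Without those libraries, Klf4 stood at 39.4 and 5.45 in WT and at 338 and 39.5 in TASTPM. Within TASTPM the serum comparison had a log2 fold change of 0.48 (SE 1.07), and K/BxN ST and Control ST overlapped. This value, a description, was −0.34 with the marker score and −0.73 with sex-linked expression as covariate. The mean of TASTPM K/BxN ST was 107 normalized counts without replicate 3 and 207 without replicate 4, against 91.2 in TASTPM Control ST. The 4 myeloid-marker libraries held 112 to 231 of Klf4, and the other 4 K/BxN ST libraries held 5.45 to 338. The border macrophage sums in WT under K/BxN ST were 2943, 1514, 0 and 1.09, beside 231, 112, 39.4 and 5.45 of Klf4. Klf4 was thus highest there in the 2 libraries with the highest sums, which were also the myeloid-marker libraries. In TASTPM under K/BxN ST the sums were 1451, 1131, 629 and 106, beside 153, 128, 338 and 39.5 of Klf4. The highest Klf4 of that group was not in the library with the highest sum. In WT Control ST, without Klf4, libraries 1 and 3 had sums of 135 and 149. Library 1 of TASTPM Control ST had a sum of 72.1 and 83.6 of Klf4. The part of these markers in the result was not tested.

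Klf2 lies on chromosome 8 from 73072726 to 73075502 on the plus strand. In WT it had 752, 634 and 678 normalized counts under Control ST and 2469, 2062, 1175 and 1481 under K/BxN ST. Every WT K/BxN ST library was above every WT Control ST library, and the ratio of the means was 2.61. The log2 fold change was 1.33 (SE 0.30, unadjusted p = 4.44e-04), rank 15 of 12645 genes, and it did not pass the adjusted threshold (limma adjusted p = 0.374). The exact two-sided permutation p was 0.0286, which no comparison of 4 with 3 libraries can go below. DESeq2 on the recovered reads called Klf2 at a log2 fold change of 1.39 (adjusted p = 0.00535), and edgeR did not (1.40, adjusted p = 0.621). Over all alternatives the adjusted p ran from 0.00535 to 1.00. Without the myeloid-marker libraries the log2 fold change was 0.94 (SE 0.29), with both remaining K/BxN ST libraries above the 3 of Control ST, and with the marker score as covariate it was 1.30. The WT Control ST libraries in this test are among those that chose the family.

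In TASTPM, Klf2 had 1225, 1907 and 1379 normalized counts in Control ST and 1117, 1275, 2357 and 1412 in K/BxN ST. Both TASTPM groups lay above the 3 WT Control ST libraries and within or near the range of WT K/BxN ST. The serum comparison in TASTPM gave a log2 fold change of −0.0018 (SE 0.30, limma adjusted p = 0.999). TASTPM against WT under K/BxN ST gave −0.23 (SE 0.27, limma adjusted p = 1.00), which became 0.47 without the myeloid-marker libraries and ran from −0.45 (without TASTPM replicate 3) to −0.0533 (without WT library 1) on leaving out 1. The difference between the 2 serum responses was −1.33 (SE 0.42, unadjusted p = 0.00625), and it did not pass the adjusted threshold (limma adjusted p = 0.999, 0.583 to 1.00 over the alternatives), and it was −0.64 without the myeloid-marker libraries. Under Control ST, TASTPM stood above WT by 1.11 on the log2 scale without overlap, as a description.

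Of the 6 members other than Klf4, limma called 0 in any tested comparison. Over all tested genes it called 0.00791% for serum in WT, 0% for serum in TASTPM, 0% in TASTPM against WT under K/BxN ST and 0% for the interaction of genotype and serum. At an unadjusted p below 0.05 the numbers of genes were 902, 533, 241 and 385, and edgeR called 0 genes in each. DESeq2 called 127 genes (1.00%) in WT, Klf2 among them as 1 of the 6 members, 16 genes in TASTPM, 0 between genotypes under K/BxN ST and 12 for the interaction. In WT, 1 of the 6 members was higher without overlap (Klf2, against 3.67% of all genes) and 2 were lower without overlap (Klf3 and Klf7, against 3.71%). In TASTPM none of the 6 was placed apart by serum (2.67% of all genes higher, 2.74% lower). Under K/BxN ST the genotypes overlapped for all 7 (1.16% higher in TASTPM and 0.672% lower among all genes). Under Control ST, which the choice used, Klf2, Klf4 and Klf13 were higher in TASTPM without overlap (4.97% of all genes) and none was lower (4.71%). In the same libraries the border macrophage markers Cd163 and Cbr2 were also higher in TASTPM without overlap, while Mrc1, Pf4 and Lyve1 overlapped. Cd163 had 0.937, 3.35 and 0 in WT and 12.5, 18.9 and 253 in TASTPM. Cbr2 had 18.7, 0 and 3.82 in WT and 20.9, 75.5 and 121 in TASTPM. Mrc1 had 115, 0 and 118 in WT and 38.6, 32.2 and 104.5 in TASTPM. Pf4 had 0, 22.6 and 26.7 in WT and 0, 14.4 and 48.2 in TASTPM. Lyve1 had 0, 0 and 0 in WT and 0, 476 and 351 in TASTPM. The part of these markers in the result was not tested.

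**Figure D2:**
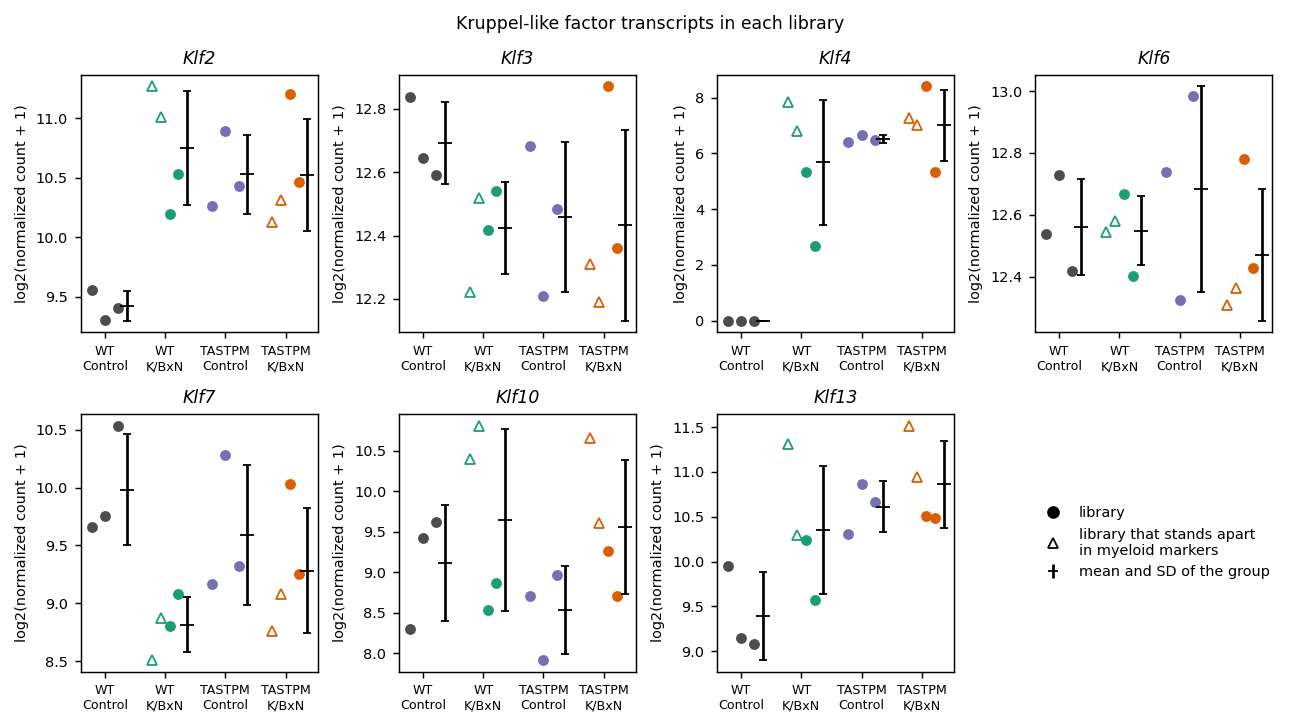
log2(normalized count + 1) of the 7 transcripts in each library by group. Open triangles are the 4 K/BxN ST libraries with high monocyte and neutrophil markers, and black bars give the mean and SD of each group. Klf4 is at 0 in the 3 WT Control ST libraries, Klf2 is lowest in those same libraries, and Klf10 and Klf13 have their highest values among the triangles.

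Klf13 lies on chromosome 7 from 63536099 to 63588663 on the minus strand. In WT it had 990, 564 and 538 normalized counts under Control ST and 2534, 1257, 1206 and 758 under K/BxN ST. The groups overlapped in 1 library of each, and the log2 fold change was 0.96 (SE 0.37, unadjusted p = 0.0209, limma adjusted p = 0.668). It was 0.51 without the myeloid-marker libraries and 0.54 with the marker score as covariate. In TASTPM, Klf13 had 1268, 1867 and 1618 in Control ST and 2932, 1972, 1451 and 1431 in K/BxN ST, a log2 fold change of 0.25 (SE 0.37, limma adjusted p = 0.967) that became −0.12 without those libraries and ran from 0.0316 (without K/BxN ST replicate 1) to 0.38 (without Control ST library 2) on leaving out 1. The 3 highest values of Klf13 over all 14 libraries were in myeloid-marker libraries. TASTPM against WT under K/BxN ST gave 0.51 (SE 0.34, limma adjusted p = 1.00), with 0.25 without WT library 4 and 0.83 without WT library 1. Under Control ST the TASTPM libraries stood above the WT libraries by 1.22 on the log2 scale, given as a description.

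Klf10 lies on chromosome 15 from 38291703 to 38300959 on the minus strand. In WT it had 313, 687 and 788 normalized counts under Control ST and 1348, 1798, 369 and 464 under K/BxN ST. In TASTPM it had 419, 241 and 498 in Control ST and 1617, 783, 614 and 416 in K/BxN ST. The 4 myeloid-marker libraries held 783 to 1798 and the other 10 held 241 to 788, with 3 of the 4 above all 10. The log2 fold change for serum was 0.54 in WT (SE 0.58, limma adjusted p = 0.825) and 1.03 in TASTPM (SE 0.58, limma adjusted p = 0.964). Without the myeloid-marker libraries these were −0.42 and 0.45, and with the marker score as covariate −0.10 and 0.28. With sex-linked expression as covariate they were 0.83 and 0.38. On leaving out 1 library, the WT value ran from 0.13 (without WT Control ST library 1) to 0.91 (without WT K/BxN ST library 3), and the TASTPM value from 0.66 (without K/BxN ST replicate 1) to 1.31 (without K/BxN ST replicate 4). The part of myeloid cells, whose Ly6C+ and CCR2+ monocytes the gate was set to leave out, in the levels of Klf10 and Klf13 was not tested beyond these values.

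**Figure D3:**
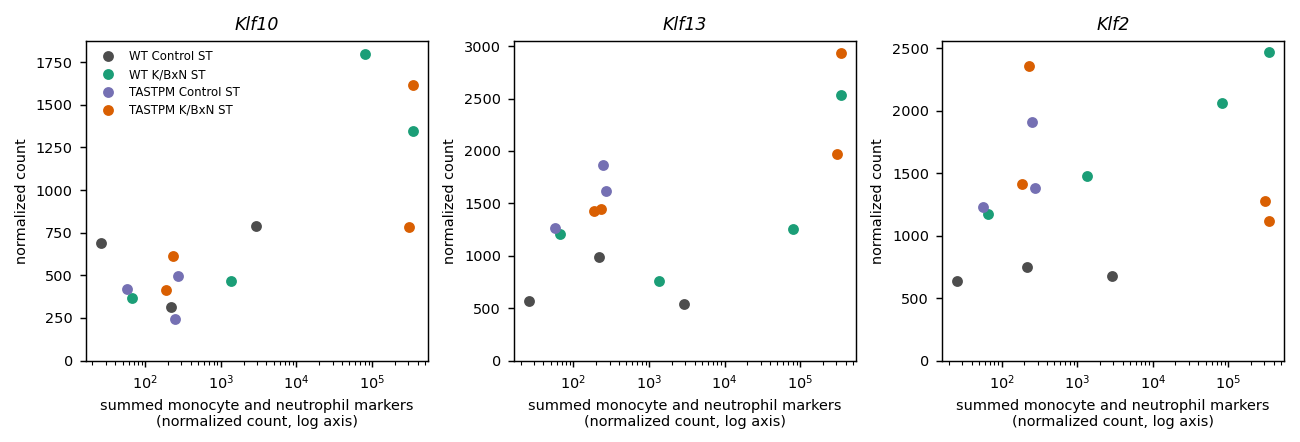
Normalized counts of Klf10, Klf13 and Klf2 (linear axis from 0) against the summed counts of 16 monocyte and neutrophil markers (log axis) in the 14 libraries, coloured by group. The 4 libraries at or above 81324 on the marker axis hold the 3 highest values of both Klf10 and Klf13. Klf2 takes its lowest values, 634 to 752, in WT Control ST, where the marker sums were 219, 26.0 and 2905.

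Klf7 lies on chromosome 1 from 64068606 to 64161508 on the minus strand. In WT it had 806, 864 and 1483 normalized counts under Control ST and 364, 469, 446 and 541 under K/BxN ST. All 4 K/BxN ST values were below all 3 Control ST values (exact two-sided permutation p = 0.0286), and the mean was 0.433 times that of Control ST. The log2 fold change of −1.17 (SE 0.35, unadjusted p = 0.00483) did not pass the adjusted threshold (limma adjusted p = 0.546, 0.101 with DESeq2). Without the myeloid-marker libraries it was −1.04, and it ran from −1.23 to −0.95 over the alternatives that kept every library of the comparison. In TASTPM, Klf7 had 572, 1246 and 641 in Control ST and 433, 540, 1046 and 610 in K/BxN ST, which overlapped, with a log2 fold change of −0.31 (SE 0.35, limma adjusted p = 0.964). The difference between the genotypes in the serum response was 0.86 (SE 0.50, unadjusted p = 0.106, limma adjusted p = 0.999).

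Klf3, on chromosome 5 from 64959875 to 64990261, and Klf6, on chromosome 13 from 5911481 to 5920393, both on the plus strand, varied least among the members, by 1.60 times from the lowest to the highest library in each. In WT, Klf3 had 7315, 6404 and 6175 normalized counts under Control ST and 4772, 5868, 5470 and 5956 under K/BxN ST. The K/BxN ST libraries lay below the Control ST libraries, by 0.27 on the log2 scale (log2 fold change −0.27, SE 0.19, limma adjusted p = 0.774, exact two-sided permutation p = 0.0571), and by 0.13 with the marker score as covariate (log2 fold change −0.13). In TASTPM, Klf3 had 6574, 4736 and 5728 in Control ST and 5073, 4667, 7491 and 5261 in K/BxN ST, with a log2 fold change of −0.03 (SE 0.19). Klf6 had 5943, 6782 and 5479 in WT Control ST and 6827, 5130 and 8105 in TASTPM Control ST. Under K/BxN ST it had 5972, 6124, 6510 and 5408 in WT and 5074, 5274, 7035 and 5507 in TASTPM. Its groups overlapped in every comparison. Its log2 fold change for serum was −0.01 in WT (SE 0.19, limma adjusted p = 0.990) and −0.21 in TASTPM (SE 0.19, limma adjusted p = 0.964). The TASTPM value was −0.0785 without the myeloid-marker libraries and ran from −0.39 (without Control ST library 2) to −0.0608 (without Control ST library 3) on leaving out 1. Exons of Klf3 share 643 bases with Gm20033, a long noncoding RNA on the opposite strand that is also in the table, and those of Klf10 and Klf7 share 62 and 7 bases with such RNAs. The sources used here do not say whether reads were counted by strand.

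Replicate 3 of TASTPM K/BxN ST, with few myeloid-marker counts, held the highest values of its group for Klf2, Klf3, Klf4, Klf6 and Klf7, and its summed count over the 7 was 20331 against 14639 to 16398 in the other 3 replicates. The sum over the 7 in the remaining libraries was 14613 to 18057.

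**Figure D4:**
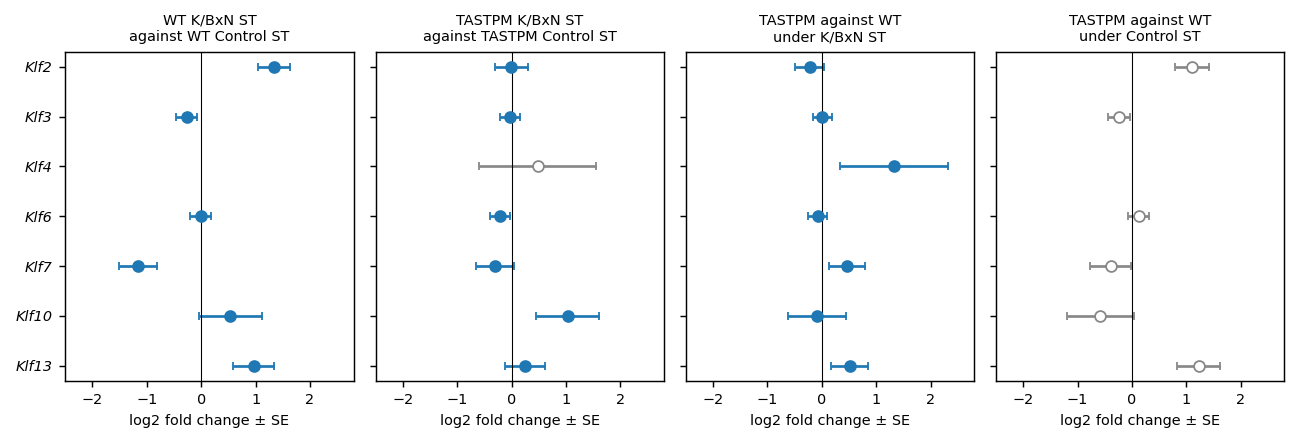
log2 fold change with its SE for each factor in 4 comparisons. Filled points were tested and open grey points are descriptions, and Klf4 is left out where WT Control ST, at 0, is the base. Klf2 at 1.33 and Klf7 at −1.17 in WT lie farthest from 0 among the tested serum comparisons.

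Across the 14 libraries, on the log2 scale, Klf4 went with Klf13 (Pearson r = 0.85, Spearman rho = 0.86) and with Klf2 (r = 0.83, rho = 0.70), and Klf2 went with Klf13 at r = 0.62. Part of this lay in the WT Control ST libraries, where all 3 were low. Over the 11 libraries without them, r was 0.74 for Klf4 with Klf13, 0.42 for Klf4 with Klf2 and 0.07 for Klf2 with Klf13. Klf3 went with Klf6 (r = 0.51 over 14 libraries and 0.63 over 11) and against Klf13 (−0.60 and −0.56). Klf10 and Klf7 ran against each other, at r = −0.43 over 14 and −0.62 over 11 libraries. These are descriptions, since libraries of 1 group share genotype and serum.

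**Figure D5:**
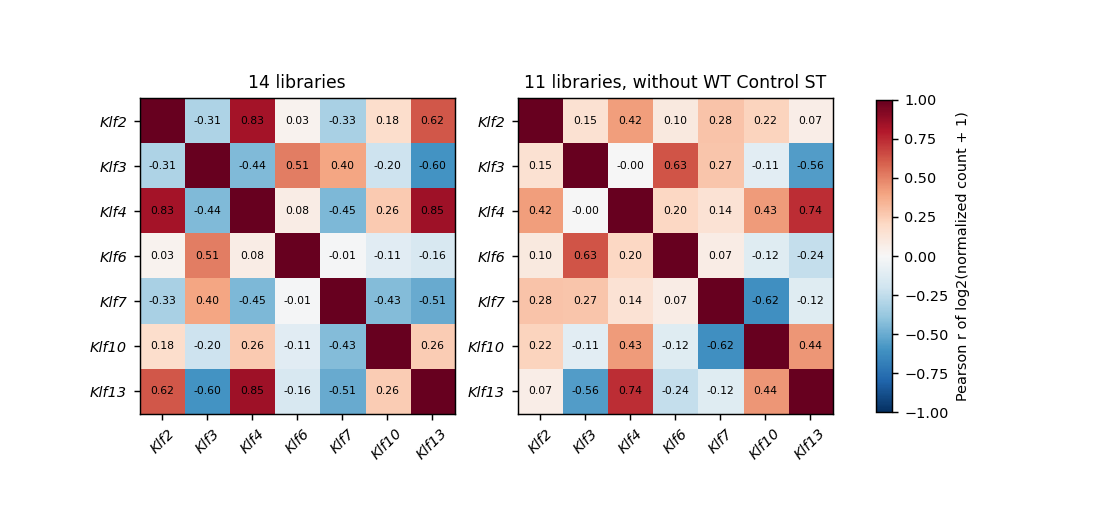
Pearson r of log2(normalized count + 1) for each pair of factors over 14 libraries (left) and over the 11 outside WT Control ST (right). Klf4 with Klf13 stays high (0.85 and 0.74), while Klf2 with Klf13 goes from 0.62 to 0.07.

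Among tested genes with a mean of at least 100 normalized counts, those most like Klf4 over the 14 libraries were Pop4, a subunit of RNase P (r = 0.92), Fosl2, a member of the AP-1 family (0.87), and Dok3, an adaptor of immune receptor signalling (0.86). Over the 11 libraries outside WT Control ST r was 0.71, 0.70 and 0.67. Fosl2 had 14.1, 70.4 and 22.0 normalized counts in WT Control ST and 208, 129 and 106 in TASTPM Control ST. Under K/BxN ST it had 360, 90.3, 176 and 76.3 in WT and 459, 268, 372 and 153 in TASTPM. Low values in WT Control ST, where Klf4 was at 0, follow from how these genes were chosen. Among those most like Klf2 were Smarca4, the ATPase of SWI/SNF chromatin remodelling (0.86), and Ubl7 (0.82), with r of 0.69 and 0.57 over the 11 libraries. Smarca4 had 636 to 756 in WT Control ST and 782 to 1172 in the other 3 groups.

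Of 19 other Klf and Sp genes, 9 were in the table and 8 were tested, and 0 were called. Sp3, a factor that binds the GC box, had 1912 to 2908 normalized counts and the highest mean per kb of the 9, 328 against 93.4 for Sp2 and 2.66 for Klf15. Mean normalized counts of Sp1, Sp2, Klf12, Klf9, Klf11 and Sp4 were 433, 350, 310, 168, 133 and 128. Klf9, a target of the glucocorticoid receptor, had in WT 0.937, 36.0 and 67.8 normalized counts under Control ST and 218, 143, 223 and 17.4 under K/BxN ST, a log2 fold change of 2.65 (SE 1.23, unadjusted p = 0.0476, limma adjusted p = 0.696) with overlap. On leaving out 1 library it ran from 1.08 (without WT Control ST library 1) to 3.66. Klf15 had reads in 4 of 14 libraries and Klf16 had a mean of 61.9. The median log2 fold change of the 8 tested genes for serum was 0.11 in WT and 0.15 in TASTPM, against 0.06 and 0.01 over all tested genes.

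The upstream list held the ERK5 route to Klf2 and Klf4 (Map3k2, Map3k3, Map2k5, Mapk7), the MEF2 factors and 3 ubiquitin ligase genes. Of its 10 genes, all tested, 0 were called and 0 reached an unadjusted p below 0.05 in any of the 3 comparisons of groups. In WT under K/BxN ST 5 had a positive and 5 a negative log2 fold change. The 4 with the smallest p were Fbxw7, a ligase subunit for several KLFs (−0.56, SE 0.40, limma adjusted p = 0.774), and Mef2c (−0.38, SE 0.27, limma adjusted p = 0.774) in WT, Map2k5 (0.40, SE 0.31, limma adjusted p = 1.00) between genotypes under K/BxN ST, and Map3k3 (0.31, SE 0.25, limma adjusted p = 0.964) in TASTPM. Without WT Control ST library 1 Fbxw7 was at −0.36, without TASTPM Control ST library 2 Map3k3 was at −0.00715, and without the myeloid-marker libraries Mef2c was at −0.12 and Map2k5 at 0.17. Mef2c ran from 4869 to 14318 normalized counts and Mef2a from 4752 to 10653, each with its lowest value in TASTPM K/BxN ST replicate 1, a myeloid-marker library.

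Of 11 corepressors and coactivators of KLFs, 10 were tested and 0 were called. Hdac1, a histone deacetylase, had in WT 952, 1128 and 871 normalized counts under Control ST and 2102, 1530, 1675 and 1155 under K/BxN ST, without overlap (log2 fold change 0.69, SE 0.31, limma adjusted p = 0.684). In TASTPM it had 684, 993 and 830 in Control ST and 2226, 1698, 874 and 1070 in K/BxN ST, a log2 fold change of 0.73 (SE 0.31, limma adjusted p = 0.964), and the 2 myeloid-marker libraries held the 2226 and 1698. Hdac2 (0.55, SE 0.27), Sin3a (1.21, SE 0.62) and Ctbp1 (0.43, SE 0.24) had the next smallest p, all in TASTPM and all at a limma adjusted p of 0.964. Sin3a had 57.5, 414 and 576 in TASTPM Control ST and 655, 521, 544 and 516 in TASTPM K/BxN ST, and its log2 fold change was 0.19 without Control ST library 1, which held the 57.5, and 1.84 without Control ST library 3. Without the myeloid-marker libraries Hdac1 was at 0.23 in TASTPM, Ctbp1 at 0.26 and Hdac2 at 0.64. The median log2 fold change of the 10 was 0.24 in WT and 0.10 in TASTPM, against 0.06 and 0.01 over all tested genes.

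Of 14 known target genes, 11 were tested and 0 were called. Itgb7, an integrin subunit, had in WT 1.87, 3.35 and 0.955 normalized counts under Control ST and 8399, 5968, 211 and 7.63 under K/BxN ST, a log2 fold change of 7.57 (SE 2.14, limma adjusted p = 0.477) that was 3.88 without the myeloid-marker libraries. All 4 myeloid-marker libraries held 2606 or more of it, and the other 10 held at most 211. Ccl5, a chemokine gene that KLF13 activates in T cells, had in WT 0, 28.5 and 6.69 under Control ST and 120, 44.3, 28.7 and 63.2 under K/BxN ST, without overlap (log2 fold change 3.22, SE 1.503, limma adjusted p = 0.698, and 1.92 without WT Control ST library 1). Lgals3, which encodes galectin-3, had 9134 to 22744 in the 4 myeloid-marker libraries and 2.39 to 286 in the other 10, and its log2 fold change in TASTPM was 3.92 (SE 2.40, limma adjusted p = 0.964), or 0.84 without the myeloid-marker libraries. Eng, a TGF-beta coreceptor, had 789, 1001 and 995 in TASTPM Control ST and 246, 489, 819 and 1203 in TASTPM K/BxN ST (−0.65, SE 0.44, limma adjusted p = 0.964). The 246 and 489 were those of the 2 myeloid-marker libraries, and the log2 fold change was 0.10 without them. Thbd, which encodes thrombomodulin and is a target of KLF2 and KLF4, was also highest in the myeloid-marker libraries, at 144 to 521, above all of the other 10. S1pr1, a target of KLF2, had 1271 to 1466 in WT and 517 to 1714 in TASTPM under Control ST, and 630 to 1289 in WT and 359 to 1327 in TASTPM under K/BxN ST. The median log2 fold change of the 11 was 0.17 in WT and 0.04 in TASTPM.

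Immediate early genes rise within minutes to hours of a stimulus and can rise during cell sorting. Of 17 such genes 15 were tested and 0 were called. Junb had 2251, 2965 and 3116 normalized counts in TASTPM Control ST and 6113, 3522, 5847 and 3347 in TASTPM K/BxN ST, without overlap (log2 fold change 0.72, SE 0.26, limma adjusted p = 0.964). Fos had 16.7, 16.7 and 0 in TASTPM Control ST and 1697, 934, 51.7 and 161 in TASTPM K/BxN ST (5.65, SE 2.27, limma adjusted p = 0.964), and all 4 myeloid-marker libraries held more Fos than any other library. Without them the log2 fold change of Fos was 3.77. In WT, Egr1 had 0, 0.838 and 636 in Control ST and 287, 213, 47.8 and 401 in K/BxN ST (4.14, SE 1.69, limma adjusted p = 0.684). The log2 fold change of Egr1 was 2.45 without WT Control ST library 1 and 7.10 without WT Control ST library 3. Ier2 in WT was at 1.74 (SE 0.85, limma adjusted p = 0.700), and at 0.37 without the myeloid-marker libraries. Ier2 had 1667 and 1476 normalized counts in the 2 myeloid-marker libraries of WT K/BxN ST, and 339 and 165 in the other 2, within the 88.9 to 421 of WT Control ST. Under Control ST, Hspa1b, a heat shock gene of the same list, was higher in TASTPM without overlap (476, 394 and 2120 against 152, 247 and 81.2 in WT), and Ier5 was lower without overlap (1375, 1289 and 1466 against 2046, 2292 and 2488). Dusp1, a phosphatase gene, had 191, 314 and 2336 in TASTPM and 282, 153 and 62.1 in WT. The part of such a response in the Klf4 levels was not tested. The median log2 fold change of the 15 was 0.21 in WT and 0.49 in TASTPM, against 0.06 and 0.01 over all tested genes.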

How the data were processed

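Microglia (2000 sorted cells per sample) gave 14 libraries, in 4 groups named by the column headers. The authors amplified cDNA (SMART-Seq v4), aligned reads to GRCm39 (HISAT2 2.1) and counted them with featureCounts 1.5.2, per the labels. The deposited unit is a signal, reads divided by 1 factor per library. Every value was a whole multiple of 1 read within 0.01, so reads were recovered for 100% of values. Of 14336 entries, 7 repeats were left out.

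The test covered the 12645 of 14329 genes that reached 10 reads in 7 libraries or more, on log2(normalized count + 1), which lessens fold changes of low genes, with limma 3.58.1 (R 4.3.3), trended prior variance and 1 fit to the 4 groups. Adjusted p values are Benjamini-Hochberg over all tested genes. A call needed an adjusted p below 0.05 and an absolute log2 fold change above 1. Exact permutation tests were two-sided over libraries. edgeR 4.0.16 and DESeq2 1.42.0 were alternatives on recovered reads. The fits were tested on simulated data. Floors of 3 reads cover counting error only.

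The members and gene lists were chosen with earlier results of these data known. Named genes are the 7 members, family members with a mean above 100, the 4 genes of smallest p per list, and the 3 most like Klf4 and Klf2. Klf15 and Klf16, below that mean, are named as well. Thbd, S1pr1 and Mef2a were added after their values were seen. Hspa1b, Ier5, Dusp1 and the markers of other cell types, border macrophages among them, are also named outside these rules, with their values seen. Some items under these rules are not reported here. Levels per kb use merged exons of GENCODE vM39, later than the authors' annotation. Alternatives covered TMM, a pseudocount of 5, no filter, marker and sex-linked covariates, 1 genotype alone and omission of libraries.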

Additional observations from a re-analysis of the deposited data

How the results depend on the processing

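Over the alternatives, the count of members called stayed at 0 in each comparison except in WT under DESeq2, where it was 1 (Klf2), and the cause was not tested. Directions turned only for differences that no test called. In TASTPM under K/BxN ST against Control ST, Klf2 turned to 0.0299 with edgeR, 0.0323 with DESeq2 and 0.30 without the myeloid-marker libraries, and ran from −0.23 to 0.18 on leaving out 1 library. Klf3 turned to 0.14 with the marker covariate and 0.16 without those libraries (−0.17 to 0.0855 on leaving out 1), Klf7 to 0.0527 without them (−0.56 to 0.0375), and Klf13 to −0.25 with the marker covariate, −0.0906 with the sex-linked covariate and −0.12 without them. In WT, Klf6 turned to 7.05e-04 with TMM, 0.0709 with the marker covariate and 0.0278 with the sex-linked covariate (−0.0838 to 0.0700), and Klf10 to −0.10 with the marker covariate and −0.42 without those libraries. Between genotypes under K/BxN ST, Klf2 turned to 0.47, Klf6 to 0.0689 and Klf10 to 0.29 without those libraries (Klf10 −0.46 to 0.30 on leaving out 1), and Klf3 to −0.0015 with TMM and −8.41e-04 with the sex-linked covariate (−0.14 to 0.0894). The interaction of Klf10 turned to −0.45 with the sex-linked covariate. The causes were not tested.

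The number of genes called in WT was 1 with limma and 127 with DESeq2. Leaving out 1 library moved that number from 1 to between 0 and 17 (14 and 17 without WT Control ST library 2 and library 3), with members remaining at 0. Klf4 in WT K/BxN ST rests on 5 to 256 reads per library. No paired analysis was possible because the groups share no replicate numbers.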
